A study of Mus musculus with 16 samples.

Results

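Hspa1a, Dnajb1, Hspb1, Bag3 and Cryab, 5 stress-inducible heat shock genes, were followed across the right kidneys of 5 mice. All probes carrying one of these symbols in the platform's annotation were taken, each as its own row, which gave 6 of the 20205 probes on the array. Bag3 had 2 probes and the other genes 1 each, and all 6 passed the filter on missing values. The genes were chosen by the measured ratios themselves: an earlier look at these same arrays found them past the threshold for differences among the kidneys and on a common side of W5. Differences between kidneys are therefore a description for them, and no p-value for such a difference is given.

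The mice, W1 to W5, were wild-type male littermates on a mixed C57BL/6 and 129Sv background, and the labels name no treatment. Per the labels they were 88 ± 2 days old and were killed by cervical dislocation between 8 and 10 in the morning. Kidney RNA of each mouse from W1 to W4 shared 4 arrays with that of W5, with the mouse in channel 1 on 8 of the 16 arrays and in channel 2 on the other 8. Each mouse is represented by 1 kidney, its 4 arrays are repeat hybridisations, and every ratio contains W5, so 4 mice on one side of W5 do not amount to 4 separate findings.

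Values are log2 ratios against W5. The sources used here do not say which channel is the numerator, so whether a kidney held more or less of a transcript than W5 is not settled. As a naming rule, values are positive on the side of W5 on which Hspa1a lay and negative on the opposite side. A value of 0 is equality with W5. Array W1.2, for example, is array 2 of mouse W1. Ratios carry no level, so kidney identity could not be checked from marker levels.

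Heat shock proteins are chaperones that hold or refold proteins which have lost their shape. Heat, oxidants, ischaemia and other stresses release heat shock factor 1, which then binds heat shock elements, repeats of the unit GAA in alternating orientation, and turns these genes on within minutes. Hspa1a is the inducible Hsp70 that binds unfolded clients with energy from ATP. Dnajb1, an Hsp40, delivers clients and starts the ATP cycle of Hsp70, and Bag3 releases nucleotide from Hsp70 and passes clients to selective autophagy. Hspb1 (Hsp27 in human) and Cryab (alpha-B crystallin) are small heat shock proteins that hold clients without ATP. In kidney the inducible chaperones are known for their response to ischaemia and, in the medulla, to high salt and urea.

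The 250 bases before the annotated start of 4 members are printed because promoters of this class are where heat shock factor 1 is known to act. They are RefSeq sequences of GRCm38.p6, 5′ to 3′ on the gene's strand. The table used held no entry for Cryab, and for Dnajb1 the upstream of its 2 starts is shown. Capitals mark GAANNTTC, a pair of facing heat shock units that reads the same on both strands.
Hspa1a, chr17:34972157-34972406, minus strand: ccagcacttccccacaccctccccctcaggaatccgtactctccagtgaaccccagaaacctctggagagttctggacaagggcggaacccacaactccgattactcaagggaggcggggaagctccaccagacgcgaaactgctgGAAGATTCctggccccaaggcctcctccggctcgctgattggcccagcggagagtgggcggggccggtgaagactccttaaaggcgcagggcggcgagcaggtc
Dnajb1, chr8:83607925-83608174, plus strand: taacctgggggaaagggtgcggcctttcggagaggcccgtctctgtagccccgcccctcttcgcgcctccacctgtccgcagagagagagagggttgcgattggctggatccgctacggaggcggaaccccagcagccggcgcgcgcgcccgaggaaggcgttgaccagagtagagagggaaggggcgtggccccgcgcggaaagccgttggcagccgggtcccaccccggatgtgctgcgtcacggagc
Hspb1, chr5:135887669-135887918, plus strand: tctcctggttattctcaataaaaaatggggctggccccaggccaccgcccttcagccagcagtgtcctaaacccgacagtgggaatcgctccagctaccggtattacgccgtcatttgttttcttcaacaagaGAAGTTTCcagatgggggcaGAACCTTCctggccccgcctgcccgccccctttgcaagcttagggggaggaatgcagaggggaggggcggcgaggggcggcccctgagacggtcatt
Bag3, chr7:128523333-128523582, plus strand: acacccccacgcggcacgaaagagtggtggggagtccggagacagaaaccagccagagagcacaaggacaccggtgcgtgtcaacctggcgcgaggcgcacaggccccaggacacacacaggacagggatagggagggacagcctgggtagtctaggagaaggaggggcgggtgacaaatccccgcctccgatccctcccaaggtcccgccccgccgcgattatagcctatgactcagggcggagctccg
Hspa1a held 1 such match, from base -104 to -97 before the start, and Hspb1 held 2, from -117 to -110 and from -97 to -90. Dnajb1 and Bag3 held none in this window. Of all 32851 promoters of this length, 6.69% held the motif. The opposite pair, TTCNNGAA, which also reads the same on both strands, was in none of the 4 and in 7.17% of all promoters. The 3-unit run, GAANNTTC followed directly by NNGAA, searched on both strands and overlapping the shorter motifs, was in none of the 4 and in 0.466% of all. CCAAT, on either strand, was present in Hspa1a and Dnajb1 and in 33.8% of all promoters, and TATAAA, on either strand, in none of the 4 and in 12.4% of all. The windows are rich in G and C, at 59.2% to 69.6% against a mean of 53.2% for all promoters. Motif matches are letters only and say nothing of binding. Hspa1b, the neighbouring copy of Hspa1a, has no probe of its own name here, and its window differs from that of Hspa1a at 3 of 250 bases. Since the copies are nearly identical, RNA of both may bind the Hspa1a probe.

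Hspa1a lay farthest from W5 of the 5 genes, at a mean over the 4 mice of 0.98 ± 0.31 (SD, n = 4), a distance of 1.97-fold. The 4 arrays of W1 read 1.34, 0.082, 1.55 and 1.35. Those of W2 read 0.30, 1.2, 0.070 and 1.35. Those of W3 gave 0.92, 0.49, 0.93 and 0.57, while W4 gave 1.67, 1.39, 1.05 and 1.41. All 16 arrays lay on one side of W5, but W1.2, W2.1 and W2.3 lay at 0.30 or below while the other arrays of the same mice lay at 1.2 or above. The fitted values were 1.08, 0.73, 0.73 and 1.38 in W1 to W4, each ± 0.21 (SE, n = 4 arrays), which is 2.12, 1.66, 1.66 and 2.60-fold. The scatter of its repeat arrays, with a residual SD of 0.52, was larger than that of 99.2% of the 15715 probes tested, whose median was 0.19. Across all probes tested, Hspa1a ranked 5 by its mean distance on this side of W5.

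**Figure D1:**
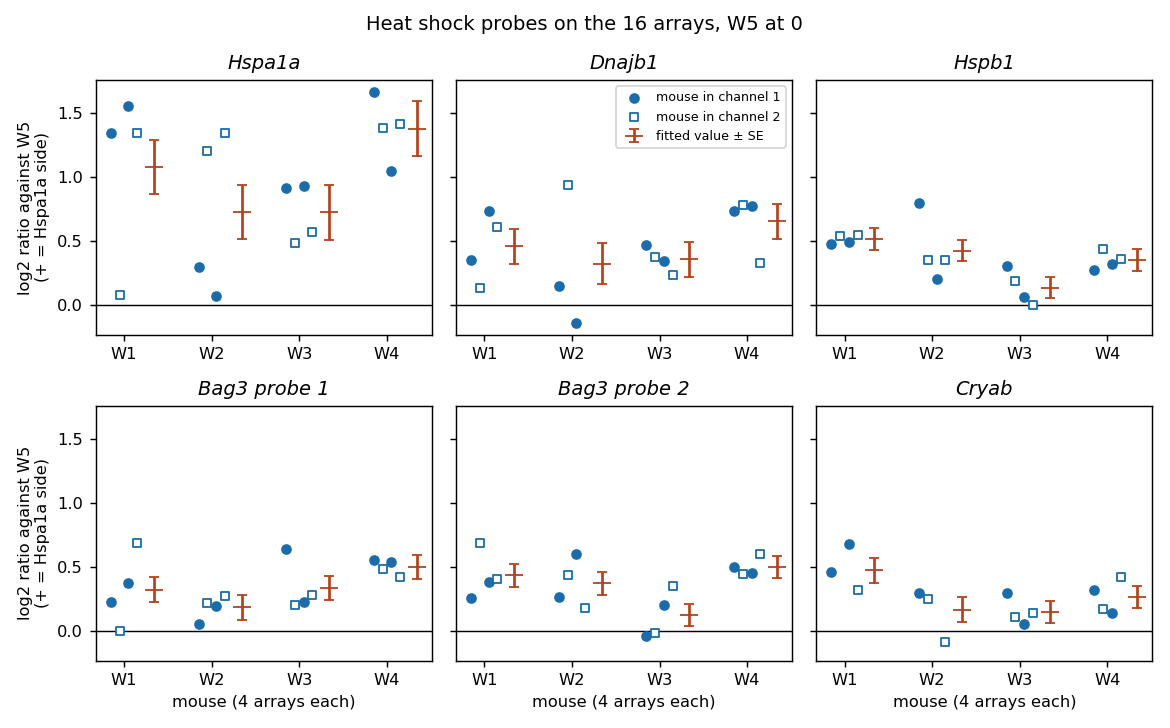
Log2 ratios against W5 (vertical axis, W5 at 0, positive on the Hspa1a side) of the 6 probes on each array, by mouse, with filled circles for arrays with the mouse in channel 1 and open squares for channel 2, and the fitted value ± SE at the right of each mouse. Hspa1a stands highest, with 3 arrays of W1 and W2 at 0.30 or below beside others of these mice at 1.2 or above, and 88 of the 93 measured points lie above 0.

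Dnajb1, which hands clients to Hsp70, followed. Its mean was 0.49 ± 0.12 (SD, n = 4 mice) with both orientations of each mouse averaged first, and 0.45 ± 0.15 over the fitted values. In the first of these means array W2.2 stands alone for one orientation of W2, and without W2.2 it was 0.37. The arrays of W1 read 0.36, 0.14, 0.74 and 0.61. Those of W2 read 0.15, 0.94 and -0.14 on W2.1, W2.2 and W2.3, with no value on W2.4. W3 gave 0.47, 0.38, 0.35 and 0.24, while W4 gave 0.74, 0.78, 0.77 and 0.33. W2 held both the lowest and the highest value of the gene, with a fit of 0.32 ± 0.16 (SE) over 3 arrays. W4 lay farthest from W5 at 0.66 ± 0.14 (1.58-fold), and W1 and W3 fitted at 0.46 and 0.36. Of the 15 values, 14 lay on the Hspa1a side, and W2.3 was the exception.

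Bag3, the exchange factor that links Hsp70 to autophagy, was measured by 2 probes with like means over the mice, 0.34 ± 0.13 and 0.36 ± 0.16 (SD, n = 4). By probe 1, W1 read 0.23, 0.0056, 0.38 and 0.69, W2 read 0.054, 0.22, 0.19 and 0.27, W3 read 0.64, 0.21, 0.23 and 0.28, and W4 read 0.56, 0.48, 0.54 and 0.42. By probe 2, W1 read 0.26, 0.69, 0.38 and 0.41, W2 read 0.27, 0.44, 0.60 and 0.18, W3 read -0.034, -0.014, 0.20 and 0.36, and W4 read 0.50, 0.45, 0.46 and 0.60. Both probes placed W4 farthest from W5, at a fitted 0.50, and with the narrowest spread of arrays. Their fits lay farthest apart on W3, at 0.34 ± 0.10 by probe 1 and at 0.13 ± 0.09 by probe 2. On W2 they lay at 0.19 ± 0.10 and 0.37 ± 0.09. Whether the probes differ on these mice was not tested. On single arrays the probes differed by 0.021 ± 0.30 (SD over 16 arrays), a spread close to the distance from W5 itself.

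Of the small heat shock proteins, Hspb1 lay about as far from W5 as Bag3, and Cryab lay nearer. For Hspb1 the arrays of W1 read 0.48, 0.54, 0.49 and 0.55, the tightest set among the members, and those of W2 read 0.80, 0.35, 0.20 and 0.36. W3 gave 0.31, 0.19, 0.063 and -0.00029, while W4 gave 0.27, 0.44, 0.33 and 0.37. W1 was thus farthest from W5, at a fitted 0.52 ± 0.08 (1.43-fold), and W3 reached W5 on 1 of its arrays, with a fit of 0.14 ± 0.08. The mean over the mice was 0.36 ± 0.16 (SD, n = 4), or 1.28-fold.

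Cryab, a crystallin of lens, muscle and kidney medulla, had the smallest mean, 0.26 ± 0.13 (SD, n = 4). It read 0.47, 0.68 and 0.32 on W1.1, W1.3 and W1.4, and 0.30, 0.25 and -0.087 on W2.1, W2.2 and W2.4, with no value on W1.2 and W2.3. W3 gave 0.30, 0.11, 0.054 and 0.15, while W4 gave 0.32, 0.18, 0.14 and 0.42. W1 lay farthest, at a fitted 0.47 ± 0.10 (1.39-fold), then W4 at 0.27 ± 0.08, with W2 and W3 at 0.17 and 0.15.

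Over the 6 probes, 93 values were measured and 3 were empty, and 88 values lay on the Hspa1a side of W5. Of the 5 on the opposite side, 2 came from Bag3 probe 2 and 1 each from Dnajb1, Hspb1 and Cryab, and all 5 lay on arrays of W2 or W3. Hspa1a and Bag3 probe 1 had every array on the Hspa1a side, as did 0.204% of all probes tested. The 6 probes all passed the 5-kidney test, against 4.00% of all probes, and 0.986% of all passed it with the 4 mice on this side. Having been picked for these properties, the members cannot be read against these shares.

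The order of the kidneys was not the same for each gene. W4 lay farthest from W5 for Hspa1a, Dnajb1 and both Bag3 probes, and W1 for Hspb1 and Cryab. W3 was nearest to W5 by 4 of the 6 probes and W2 by the other 2. Neighbours among W1 to W4 in this order lay 0.0017 to 0.35 apart, each within 2 SE of the repeat arrays, though sorting by the same values makes such gaps small. Between the outermost of these 4 mice, Hspb1 differed by 0.38 ± 0.12 (SE), W1 against W3, and Hspa1a by 0.65 ± 0.30, W4 against W3. The same sorting makes such outer gaps wide. Of all 36 pairs of these mice over the 6 probes, 9 lay more than 2 SE apart. The innermost of the 4 mice lay 0.73 ± 0.21 from W5 for Hspa1a and 0.32 ± 0.16 for Dnajb1. For the other 4 probes it lay 0.13 to 0.19 from W5, each within 2 SE. These errors cover repeat arrays of the same extracts only.

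The values that chose the genes also divide by the orientation of the arrays, given here as a description. Hspa1a averaged 0.98 ± 0.57 with the mouse in channel 1 and 0.98 ± 0.52 with the mouse in channel 2 (SD, n = 8 arrays each). Hspb1 averaged 0.37 and 0.35, Bag3 probe 1 0.35 and 0.32, and Bag3 probe 2 0.33 and 0.39. Dnajb1 averaged 0.43 over 8 arrays and 0.49 over 7, and Cryab 0.32 and 0.19 over 7 each. The fitted gene-specific dye term, the part of a ratio that follows the channel and not the mouse, was 0.044 or less in size for all 6 probes. With signs left as deposited, the means of these probes thus had opposite signs in the opposite orientations.

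The other heat shock and chaperone genes were tested with the 5-kidney test (limma's moderated F test of the 4 mouse values, Benjamini-Hochberg over all 15715 probes). Of 102 listed genes besides the members, 66 were tested and 4, or 6.06%, passed, against 4.2% of all named genes. Their mean distance from W5 had a median of 0.022 and ran from -0.12 to 0.22. The 5 members lay between 0.26 and 0.98, but they were picked for such values, so their range cannot be read against that of the other genes. The median over all named genes was -0.0020. In bulk tissue, fewer cells of a type and less RNA per cell cannot be told apart.

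Hsp70 relatives had 0 of 7 tested genes past the threshold. Hspa8, the constitutive Hsp70, lay at 0.21, 0.15, -0.21 and 0.16 in W1 to W4 (adjusted p = 0.239), which left its mean at 0.080 ± 0.19 (SD, n = 4). Hspa5 (BiP), the Hsp70 of the endoplasmic reticulum, lay between -0.075 and 0.13 (adjusted p = 0.882). Among the other Hsp40 genes 0 of 13 passed, with means from -0.12 to 0.13, and among the other small heat shock proteins 0 of 7. In that last group Cryaa had the widest range, 0.42, and Hspb8, the usual partner of Bag3, lay between -0.0067 and 0.14. Other Bag genes and Hsp70 cochaperones had 0 of 8 past the threshold. Bag2 reached 0.54 ± 0.14 in W4, with an adjusted p of 0.149. Chaperonins had 0 of 5. In the list of heat shock factors and their binding proteins 0 of 2 passed, and both were binding proteins, so no heat shock factor itself was tested. Hsf1, Hsph1, Hspd1 and Hmox1 were not analysed here.

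Hsp90 and its cochaperones had 3 of 9 genes past the threshold. Fkbp5, a cochaperone of steroid receptors that glucocorticoids induce, lay at 0.31, 0.39, -0.21 and 0.12 in W1 to W4, each ± 0.07, a range of 0.59 (adjusted p = 0.00188). Fkbp4, its relative with the opposite effect on the receptor, lay at 0.31, 0.089, -0.042 and 0.30 (adjusted p = 0.0132). Ptges3 (p23), which closes the Hsp90 cycle, lay at -0.061, 0.48, 0.17 and -0.10 (adjusted p = 0.029). Each of the 3 had a mouse fitted on the far side of W5, so none kept to one side as Hspa1a did in the fit. For Fkbp4 that mouse, W3, lay within its SE of 0.07 from W5. By the mean over the mice, all 9 tested genes of this list lay on the Hspa1a side, at 0.019 to 0.16, as did 3936 of 8005 named genes. Without mouse W2 the adjusted p was 0.0506 for Fkbp5 and 0.587 for Ptges3, and without W1 or W4 it was 0.157 or 0.0705 for Fkbp4. Ptges3 also missed the threshold without any single array of W2, at 0.0695 to 0.133. Hsp90aa1, the inducible Hsp90, lay at 0.23, 0.20, -0.069 and 0.30 and did not pass (adjusted p = 0.244). In the endoplasmic reticulum group 1 of 16 passed, Manf, a secreted stress factor, at 0.38 ± 0.08 in W2 and 0.031 to 0.094 in the others (adjusted p = 0.0434). Its other probe also passed, but the call was lost in 20 of 27 alternative settings, 13 of them without a single array.

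**Figure D2:**
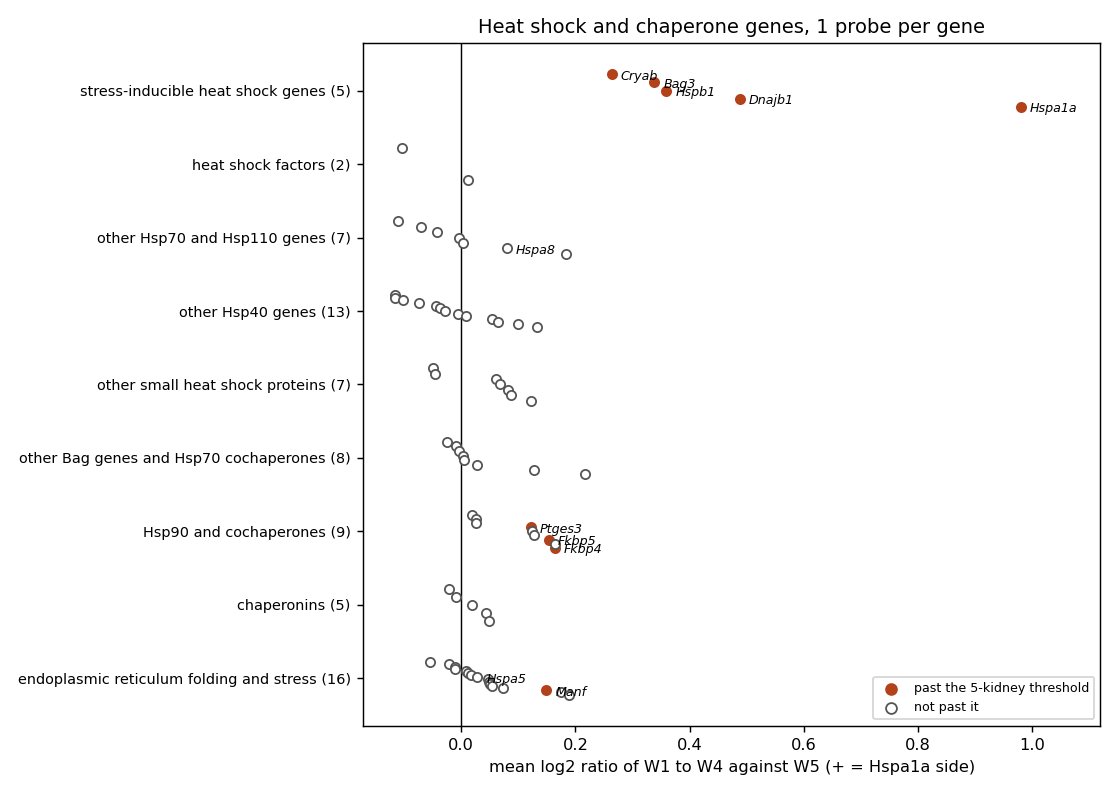
Mean log2 ratio of W1 to W4 against W5 (horizontal axis, positive on the Hspa1a side) for each tested gene, with a row per list, the number of tested genes in brackets, and filled points for genes past the 5-kidney threshold. The 5 members, which were picked for such values, lie between 0.26 and 0.98. The 66 other genes, which were not, lie between -0.12 and 0.22 with 4 filled points.

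W5 set against its littermates with the mouse as replicate (limma on the 4 mouse means) had 0 of these 66 genes past the threshold, against 0.286% of all probes. Of the stress and marker lists below, Gadd45g, Mt2, Fabp4 and Cidec passed it (adjusted p = 0.0239, 0.0252, 0.0116 and 0.0241), and no other gene did. Among all 8005 named genes 26 passed. This test leaves out the spread of W5 itself. The test among W1 to W4, in which W5 cancels, had 1 of 66, Fkbp5 (adjusted p = 0.017), against 0.700% of all probes.

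Other stress genes moved in both directions. Of 14 immediate early genes 5 passed the 5-kidney test, against 4.2% of all named genes. Gadd45g, a growth arrest gene, lay on the Hspa1a side at 0.88, 0.60, 1.07 and 0.31 in W1 to W4, each ± 0.08 (adjusted p = 4.02e-08). Its order differed from that of Hspa1a, with W3 farthest from W5 and W4 nearest. Ccn2 lay on the opposite side for W2 (-0.77) and W4 (-0.68), with W1 at 0.054 and W3 at -0.14 (adjusted p = 1.22e-05). Ier3 had a mean of -0.27 (adjusted p = 0.00233, but 0.0801 without mouse W3 and 0.0581 without the dye term). Among 11 oxidative and metal stress genes 3 passed. Mt2, a metallothionein, lay at 0.25 to 0.44 in the 4 mice (adjusted p = 0.0188, and 0.0842 without mouse W4), Srxn1 at -0.34 to -0.18 (adjusted p = 0.0446, lost in 22 of 27 settings), and Gclc at -0.90 in W3 with the other mice within 0.15 of W5 (adjusted p = 0.00025, and 0.642 without mouse W3). The other Gclc probe also passed but read otherwise, at 1.19 to 1.61 in all 4 mice. Of 9 autophagy genes linked to Bag3 1 passed, Atg7, at 0.48 in W2 (adjusted p = 0.0183, and 0.572 without that mouse).

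Markers of other cells differed on the same side as the members in 1 list. Of the 9 listed adipocyte markers 4 were tested and 3 passed the 5-kidney test, against 4.2% of all named genes. Fabp4, the fatty acid binding protein of fat cells, lay at 0.47, 0.67, 0.64 and 0.31 in W1 to W4, each ± 0.10 (adjusted p = 3.8e-05). Cidec, a lipid droplet protein, lay at 0.37, 0.36, 0.68 and 0.85, and Car3 at 0.084, 0.34, 0.35 and 0.53 (adjusted p = 0.00219 and 0.00145). The fourth, Retn, lay at 0.063 to 0.098 and did not pass (adjusted p = 0.611). Their part in the result on the heat shock genes was not tested, and ratios give no summed level.

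The lists of kidney and vessel cells did not all lie on the same side of W5. Of the tested endothelium markers 1 of 8, and of the glomerulus markers 1 of 4, had a mean on the Hspa1a side. Among all named genes 4.2% passed the 5-kidney test. Medulla and collecting duct markers had a list median of 0.052 and 1 of 7 past the threshold, the water channel gene Aqp2. It lay at 0.54 in W4, 0.36 in W1, 0.13 in W3 and -0.054 in W2 (adjusted p = 0.00879). Its adjusted p was 0.16 without mouse W4, 0.0532 without W1 and 0.0633 without the dye term. Proximal tubule markers had 5 of 11, of which 4 had a mean on the Hspa1a side. Among these 4, Slc5a1 lay on that side in every mouse, at 0.26, 0.43, 0.19 and 0.34 in W1 to W4 (adjusted p = 0.00929). Ass1 had a mean on the opposite side, -0.19 (adjusted p = 0.0491). Slc5a1 and Ass1 were not followed through the alternative settings. Slc22a7, an organic anion transporter, lay at 0.53 in W2 and 0.50 in W4, and Slc13a3, a dicarboxylate transporter, at 0.27 and 0.43 in the same mice (adjusted p = 7.26e-05 and 0.00434, the latter 0.125 without mouse W4). Aqp1 lay at 0.22 to 0.30 in W1, W3 and W4 and at -0.17 in W2 (adjusted p = 0.0153). Its adjusted p was 0.103 without mouse W1 and 0.149 without the dye term. Endothelium markers had 3 of 8, all with a mean on the opposite side, where Esm1 reached -0.74 in W4, Emcn -0.59 in W4 and Egfl7 -0.45 in W2. A second probe of Flt1, a receptor for vascular endothelial growth factor, also passed (adjusted p = 0.00393, mean -0.23), while the one used for the count did not. Without mouse W2 the adjusted p was 0.2 for Egfl7 and 0.0503 for Emcn. Glomerulus markers had 2 of 4, Podxl with a mean of -0.40 and Ehd3 with -0.16, whose call was lost in 10 of 27 settings. Muscle markers had 1 of 12, Mylk with a mean of -0.18 (adjusted p = 0.0407, lost in 20 of 27 settings). By the 1 probe used for each gene, 0 of 2 distal markers and 0 of 5 blood cell markers passed, but another probe of Lyz2, a lysozyme of myeloid cells, did (adjusted p = 0.0117, mean -0.23).

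**Figure D3:**
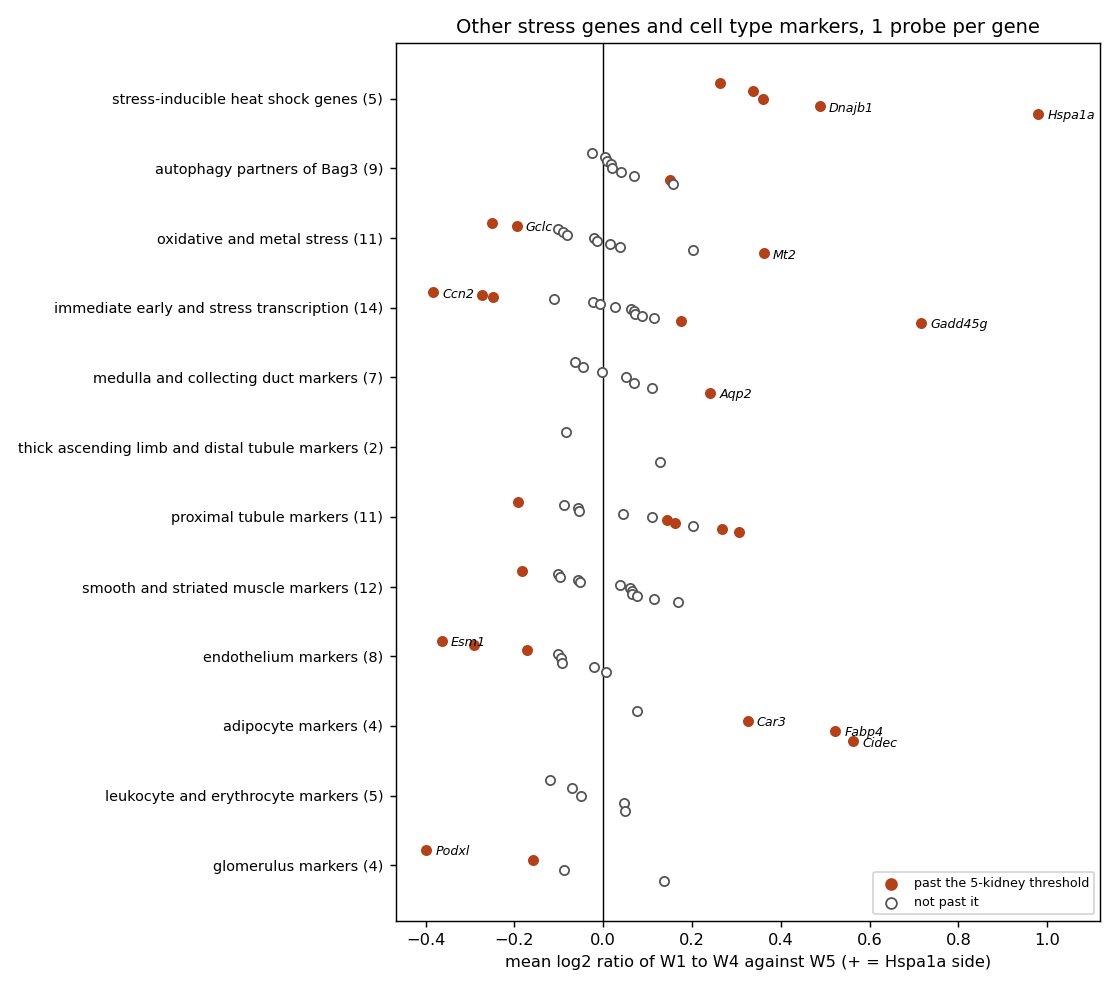
Mean log2 ratio of W1 to W4 against W5 (horizontal axis, positive on the Hspa1a side) for other stress genes and cell type markers, drawn as in the plot of chaperone lists, with the 5 heat shock genes in the top row. Adipocyte markers reach 0.56 on the Hspa1a side, endothelium markers reach -0.36 on the opposite side, and Gadd45g at 0.72 is the point nearest to Hspa1a.

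The named genes with a profile nearest to that of Hspa1a were found by the root mean square (RMS) difference of the 4 fitted values, over 4 mice that share W5 and 8000 named genes outside the members. Rdh16f2, a retinol dehydrogenase family gene, was nearest at 0.44, followed by Cidec at 0.48, Cyp2d9 at 0.56, Gadd45g and Napsa at 0.57 and 0.58, and Cyp4a14 at 0.59. These distances exceed the SE of Hspa1a itself, 0.21, so no gene matched it closely. Of the members, Dnajb1 lay at 0.55, Bag3 and Hspb1 at 0.67 and Cryab at 0.75. The members were chosen for a common side of W5, so their closeness to each other is in part set by that choice. Around Dnajb1 the profiles were denser, with 50 genes within an RMS of 0.25. Baiap2 was nearest at 0.068, then Napsa at 0.084 and Mknk2 at 0.12, while Bag3 lay at 0.12, Hspb1 at 0.20 and Cryab at 0.24. Hspa1a lay at 0.55 from Dnajb1, with 6363 of the 8000 genes nearer. The RMS difference follows the size of the values as well as their order over the mice.

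**Figure D4:**
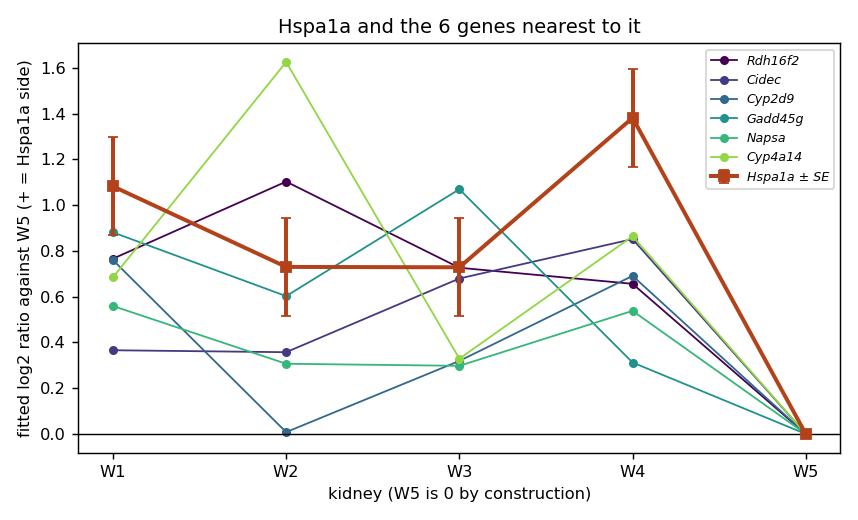
Fitted log2 ratios against W5 (vertical axis, positive on the Hspa1a side) in the 5 kidneys for Hspa1a, with SE bars, and the 6 named genes with the smallest RMS difference from it. W5 is 0 by construction, and Hspa1a is farthest from it in W1 (1.08) and W4 (1.38), whereas Cyp4a14 (1.63) and Rdh16f2 (1.1) lie farther in W2 and Gadd45g (1.07) in W3.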

How the data were processed

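Per the labels' protocols, kidney RNA was labelled indirectly with Cy3 or Cy5, and slides were scanned on a GenePix 4000A, with images processed in GenePix Pro 3.0. The authors subtracted background from mean intensities and scaled each array to a median ratio of 1, and the deposited values are log2 ratios. The base was read from the values: with each array's most frequent value as ratio 1, 1.56% to 5.01% of the rest fell on log2 of ratios of whole numbers up to 12, against at most 0.126% under log10 and 0.0345% under natural logs. The numerator and each channel's dye: not given in the sources used here. The same holds for why values are empty.

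Arrays held values for 80.2% to 91.1% of 20205 probes, and the number of arrays and animals limits the precision. Signs were turned on the 8 arrays that hold W5 in channel 1. As deposited, arrays of like orientation from different mice correlated at 0.015 to 0.386 over probes, and those of 1 mouse in opposite orientations at -0.169 to 0.0844. Probes with at least 3 of 4 arrays in every mouse (15715) entered limma 3.58.1 in R 4.3.3, with 4 mouse coefficients and a gene-specific dye term (lmFit, eBayes). P-values were adjusted by Benjamini-Hochberg, with a threshold of 0.05. The 5-kidney F test, the F test among W1 to W4, the dye test and a test of the 4 orientation-balanced mouse means against 0 called 629, 110, 1959 and 45 probes, and 2806, 1751, 4605 and 2111 had an unadjusted p under 0.05. Since arrays repeat the same RNA extracts, the first 3 tests concern these extracts; the last leaves out the spread of W5. The code was tested on simulated data.

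Of the probes, 11723 had 1 symbol, 806 several and 7676 none in the platform annotation, and 11590 matched a GRCm38.p6 gene table. Lists used 1 probe per gene, the one on most arrays. The members and the gene lists were chosen with earlier results of these data known. Named were all member probes, up to 3 called genes of each list with the widest range, a few set chaperones, and the nearest profiles. Bag2, Cryaa, Hspb8, Retn, Slc5a1, Ass1 and the second probes of Flt1 and Lyz2 were added after their values were seen. Alternatives left out arrays, mice or the dye term, or changed signs, filters, scaling and weights.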

Additional observations from a re-analysis of the deposited data

Results flagged for a closer look

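Among the 21 sets of 4 arrays of a member probe and a mouse, 2 held an array that stood apart by Dixon's criterion, where chance marks about 1 in 20. Hspa1a read 0.0822 on W1.2 against 1.34 to 1.55 on the other arrays of W1, and Dnajb1 read 0.332 on W4.4 against 0.74 to 0.78 on the other arrays of W4. Without W1.2 the mean distance of Hspa1a was 1.06, and the cause was not tested.

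By limma's F test among the mice from W1 to W4, in which W5 cancels, 66 of 8005 named genes passed. Those among the genes named in the text were Gclc (adjusted p = 0.00115, range 1.05), Cyp4a14 (0.000383, range 1.3), Ccn2 (0.00184, range 0.82), Cyp2d9 (0.00222, range 0.75), Esm1 (0.00509, range 0.70), Slc22a7 (0.00688, range 0.54) and Gadd45g (0.00904, range 0.76). Fkbp5 (0.017, range 0.59), Slc13a3 (0.0367, range 0.50), Emcn (0.0435, range 0.56) and Egfl7 (0.0435, range 0.54) followed. The values of Gclc are those of 1 of its 2 probes, and the other read otherwise, as given above.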

How the results depend on the processing

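Mean distances of the 5 genes stayed within 1 SD of the mice in every alternative run except the one with signs left as deposited. There Hspa1a averaged -0.00026, Dnajb1 -0.057, Hspb1 0.0099, Bag3 0.015 and Cryab 0.056, and the counts were 23 in the 5-kidney test, 0 among W1 to W4, 577 for the dye term, 204 for W5 against its littermates and 0 of 66 chaperone genes. Leaving out single arrays gave means of 0.90 to 1.06 for Hspa1a, 0.37 to 0.52 for Dnajb1, 0.32 to 0.40 for Hspb1, 0.30 to 0.38 for Bag3 and 0.24 to 0.29 for Cryab. Leaving them out gave 457 to 671 probes in the 5-kidney test, 72 to 125 among W1 to W4 (72 without W3.2), 1267 to 1915 for the dye term and 27 to 59 for W5 (27 without W4.2 or W4.3). The chaperone count of 4 then ran from 2 (without W2.2 or W2.4) to 4. Without mouse W1 the counts were 378, 54, 658 and 27 in the order above, with 2 chaperone genes, and without W2 335, 53, 720 and 16, also with 2. Without W3 49 probes passed among W1 to W4 and 734 for the dye term, and without W4 70 and 943. Without the dye term 403 and 62 probes passed the F tests, and with array weights 243 passed among W1 to W4. The W5 count was 126 with values required on all 16 arrays, 21 with 2 arrays per mouse, 69 with a common median absolute deviation and 3 with a spread added for W5. The cause of these moves was not tested, apart from the fewer arrays, mice or probes that some settings hold by construction.

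Array numbers 1 to 4 recur in every mouse. Deviations of same-numbered arrays of different mice, with the dye effect left in, correlated at 0.0863 to 0.335 (median 0.164). Arrays of different number but like orientation gave -0.0145 to 0.324 (median 0.112). The numbers were not taken as pairs because not all same-numbered values were over 0.1, which does not show that the arrays are unpaired. With the array number as a replicate block the counts were 591, 97 and 49 in the 5-kidney, W1 to W4 and W5 tests, with 4 chaperone genes, and Hspa1a stayed at 0.98. The fit without the dye term was not run for the W5 test and the mean distances, which average both orientations, and values on all 16 arrays left out Dnajb1 and Cryab.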

Other observations

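The repeat arrays of a mouse differed most for Hspa1a, and some other members differed on the same arrays. After the fitted mouse values and dye term were taken off, the remaining deviations of Dnajb1 correlated with those of Hspa1a at 0.727 over 15 arrays, a value above that of 99.3% of all probes tested. Bag3 probe 1 correlated at 0.562 over 16 arrays, but Bag3 probe 2 at -0.547, and Hspb1 and Cryab at -0.126 and -0.0487. From the lowest to the highest 5% of all probes these correlations ran from -0.503 to 0.521. The points share arrays and RNA extracts, and these deviations lie within a mouse, so they are not differences between kidneys.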
